A study of Homo sapiens with 6 samples.

Results

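Kinases and phosphatases of the cytoplasm and nucleus were examined in a breast cancer line in which LOXL2 had been targeted by a hairpin. They were chosen from the authors' deposited table of log ratios by the annotation columns of that table, as entries typed kinase or phosphatase with the location Cytoplasm or Nucleus. Of the 34 such entries, those of 9 genes known mainly from mitosis, thymidine phosphorylation or MAPK feedback were left out by name (13 names were given, of which 10 had an entry at any location). This left 25 entries of 23 genes, 16 typed kinase and 7 typed phosphatase, out of 672 distinct gene symbols in 724 entries. The choice rests on the table itself, which holds only genes the authors listed, so all values below are descriptions and no test was made on them.

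MDA-MB-231 is an established human breast cancer line of mesenchymal character that lacks the oestrogen receptor. A lentivirus delivered a short hairpin to all of the cells, and the 3 shLOXL2 arrays differ from the 3 shControl arrays in the hairpin alone, as labelled. LOXL2 is a secreted amine oxidase that cross-links collagen. Whether the arrays came from separate cultures is not given in the labels, and for 2 of the control arrays another label field names shLOXL2, so the groups rest on the titles and the knockdown field. The labels give a single hairpin name per group, and cell type markers could not be checked on the arrays, whose probe sets carry no gene names.

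Kinases transfer phosphate to proteins, lipids or small molecules, and phosphatases remove it. Within the cell these enzymes relay signals from adhesion and growth factor receptors to the cytoskeleton and to transcription, and they time the steps of the cell cycle. Many work through subunits that hold no activity of their own but steer or restrain a catalytic partner.

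The name under which these genes were grouped, kinases and phosphatases outside mitosis, does not hold for all of them. Of the 23 genes, 8 act mainly in cell division by textbook knowledge: CDKN3, CDC25C, DLGAP5, CKS1B, CIT, WEE1, AURKB and DBF4. Cell division is taken broadly here, with DNA replication (DBF4) and the control of cyclin-dependent kinases included. The types of the authors' deposited table are also broad, since 5 of the 23 proteins (DLGAP5, CKS1B, DBF4, PRKAR2A and CRKL) are not themselves kinases or phosphatases but partners, regulators or adaptors. Both divisions were made from textbook roles with the listed values in view.

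Of the 23 genes, the authors' deposited table gave 12 as higher in shLOXL2 cells (52.2%) and 11 as lower. Of all 671 genes with entries of a single sign, 56.2% were higher and 43.8% lower. Kinases split evenly in the authors' deposited table, with 8 listed higher and 8 lower, and of the phosphatases 4 were listed higher and 3 lower. The division genes lay on one side of the authors' deposited table, all 8 higher, and of the other 15 genes 4 were listed higher and 11 lower. Outside cell division, 3 of 11 kinases and 1 of 4 phosphatases were listed higher in the authors' deposited table. The 56.2% over all genes is no like background for these, since division genes were not taken out of it. It also keeps the 10 genes left out by name, 9 of them listed higher. The values of the 23 genes in the authors' deposited table ran from -0.88 to 1.18, and none could lie within 0.537 of 0, the smallest size of any entry.

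**Figure D1:**
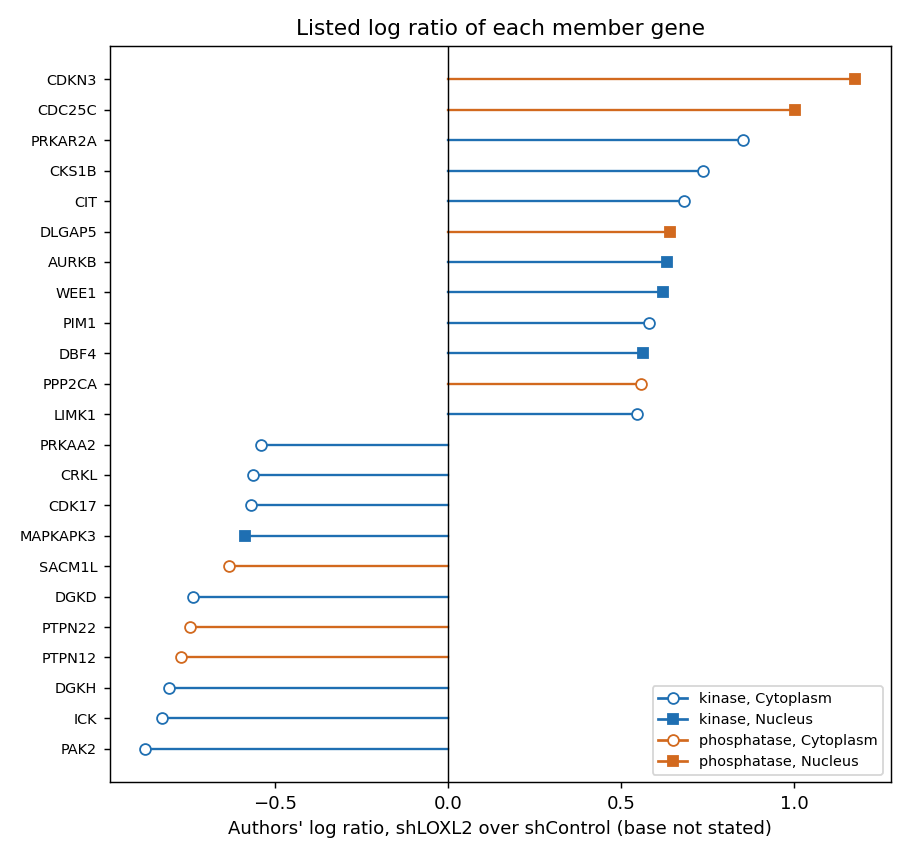
Log ratio of each of the 23 genes as listed by the authors (x axis, shLOXL2 over shControl, base not stated), with kinases in blue, phosphatases in orange, open circles for Cytoplasm and filled squares for Nucleus. The phosphatases CDKN3 and CDC25C stand farthest to the right at 1.18 and 1.00, the kinase PAK2 farthest to the left at -0.88, and MAPKAPK3 is the only nuclear gene on the left.

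The start regions of some of these genes are shown because most of the division genes hold letters there that most other genes lack. RefSeq promoter windows (assembly GRCh38.p14, 250 bases before to 50 after a start site) were found for 21 of the 23 genes. Capitals mark TTTGAA, the core of the cell cycle homology region of genes expressed in G2 and mitosis, and CCAAT, the CCAAT box, each on either strand, so that the reverse forms TTCAAA and ATTGG are capitals too. The first 4 genes were listed higher and act in cell division, and PAK2, the gene listed lowest, is shown for contrast.
CKS1B, chr1:154974431-154974730, plus strand: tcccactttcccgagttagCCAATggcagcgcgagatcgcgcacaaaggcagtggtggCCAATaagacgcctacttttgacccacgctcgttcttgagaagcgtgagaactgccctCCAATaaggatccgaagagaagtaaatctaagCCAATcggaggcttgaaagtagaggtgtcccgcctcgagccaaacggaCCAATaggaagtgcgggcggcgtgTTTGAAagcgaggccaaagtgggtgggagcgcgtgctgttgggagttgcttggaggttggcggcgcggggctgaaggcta
CDC25C, chr5:138331755-138332054, minus strand: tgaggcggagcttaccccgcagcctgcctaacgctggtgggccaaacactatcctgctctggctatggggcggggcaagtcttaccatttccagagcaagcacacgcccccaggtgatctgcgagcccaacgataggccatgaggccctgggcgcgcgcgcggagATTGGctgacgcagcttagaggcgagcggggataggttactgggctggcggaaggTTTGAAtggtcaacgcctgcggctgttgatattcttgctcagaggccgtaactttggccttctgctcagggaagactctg
CDKN3, chr14:54396757-54397056, plus strand: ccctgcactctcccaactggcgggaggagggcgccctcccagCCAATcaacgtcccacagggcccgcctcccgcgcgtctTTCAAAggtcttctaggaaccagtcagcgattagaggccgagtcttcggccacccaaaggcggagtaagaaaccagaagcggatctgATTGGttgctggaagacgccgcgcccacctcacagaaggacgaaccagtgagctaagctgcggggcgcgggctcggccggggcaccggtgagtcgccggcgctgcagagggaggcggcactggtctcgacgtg
DLGAP5, chr14:55191536-55191835, minus strand: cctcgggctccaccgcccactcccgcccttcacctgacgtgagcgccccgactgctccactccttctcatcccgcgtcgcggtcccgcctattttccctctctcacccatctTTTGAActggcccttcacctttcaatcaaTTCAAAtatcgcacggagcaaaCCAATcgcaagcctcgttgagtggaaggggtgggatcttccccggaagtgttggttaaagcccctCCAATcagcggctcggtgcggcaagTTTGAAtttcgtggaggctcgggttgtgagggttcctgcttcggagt
PAK2, chr3:196739607-196739906, plus strand: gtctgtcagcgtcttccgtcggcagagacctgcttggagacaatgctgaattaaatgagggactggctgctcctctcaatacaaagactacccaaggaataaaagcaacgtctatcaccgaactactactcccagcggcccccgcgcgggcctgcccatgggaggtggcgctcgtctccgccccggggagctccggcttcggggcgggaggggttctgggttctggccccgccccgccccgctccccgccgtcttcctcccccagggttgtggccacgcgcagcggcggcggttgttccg
In CKS1B the TTTGAA begins at position -30 from the start site, after 5 CCAAT boxes. CDC25C also has it at -30 of this start site, with an ATTGG at -85. DLGAP5 holds TTTGAA at -138 and 4 and its reverse form at -109, and CDKN3 holds the reverse form at -170. PAK2 has neither motif in its window, but other genes listed lower hold TTTGAA, among them DGKH at -33. CDC25C has further windows, and some of them hold neither motif.

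TTTGAA was found in 6 of the 7 division genes with a window, namely CDC25C, CDKN3, CIT, CKS1B, DBF4 and DLGAP5, and in 3 of the other 14, DGKD, DGKH and PTPN22. Over all 27305 genes with a window, 18.2% held it in at least 1 (15.2% of windows). CCAAT was found in 6 of the 7 division genes, AURKB in place of DBF4, and in 5 of the other 14, against 39.7% of all genes. Neither TTTNNCGC, a form of the E2F site, nor the TATA box TATAAA was found in any of the 21 genes (8.23% and 14.0% of all genes). CATTCC, the core bound by TEAD factors, was found in DBF4 and PTPN22 (16.7% of all genes), and TGANTCA, the AP-1 site, in PPP2CA (9.37%). Base composition also differed between these groups. The median GC content was 62.7% over the windows of division genes, 71.0% over those of the other genes and 58.7% over all windows. Its part in the motif counts was not tested. A match is only a run of letters and was not measured as a bound site.

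Among the phosphatases, the highest values were those of enzymes that act on cyclin-dependent kinases. CDKN3, which removes the activating phosphate of cyclin-dependent kinases, was listed at 1.18 in the authors' deposited table, the rank of 14 among 377 genes listed higher. CDC25C, which removes the inhibitory phosphates of CDK1 and so allows entry into mitosis, was listed at 1.00 in the authors' deposited table, at rank 37. These were the only genes of the 23 with a size of 1 or more in either direction, against 59 of 671 in the whole of the authors' deposited table. DLGAP5, a spindle microtubule protein that the file types as a phosphatase, had 0.64 in the authors' deposited table. PPP2CA, a catalytic subunit of protein phosphatase 2A, had 0.56 there, close to the smallest entry of the authors' deposited table.

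The phosphatases listed lower were all cytoplasmic and lay close together. PTPN12, a tyrosine phosphatase that acts on focal adhesion and cytoskeletal proteins, had -0.77 in the authors' deposited table. PTPN22, a tyrosine phosphatase best known from lymphocytes, had -0.75 in the authors' deposited table. SACM1L, which removes phosphate from phosphatidylinositol 4-phosphate at the endoplasmic reticulum and Golgi, had -0.63 in the authors' deposited table. The next gene typed phosphatase below PTPN12 in the authors' deposited table was DUSP1, left out by name, at -0.93.

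Among the kinases listed higher, those of cell division lay between 0.56 and 0.74. CKS1B, a small subunit that binds cyclin-dependent kinases, had 2 entries in the authors' deposited table that differed by little, 0.736 and 0.735. CIT (citron), a kinase of the cleavage furrow, had 0.68 in the authors' deposited table. AURKB (aurora B), the kinase of the chromosomal passenger complex, had 0.63 in the authors' deposited table and was the only one of the 23 genes with a drug in its annotation (24 of all 671 genes had one). WEE1, the kinase that places the inhibitory phosphate on CDK1 that CDC25C removes, was listed higher like CDC25C, with 2 entries of 0.68 and 0.56 in the authors' deposited table. The entries of WEE1 thus lay farther apart than those of CKS1B, and no other member had more than 1 entry. DBF4, the activating subunit of the replication kinase CDC7, had 0.56 in the authors' deposited table.

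Outside cell division 3 kinase genes were listed higher. PRKAR2A, a regulatory subunit that holds protein kinase A inactive until cyclic AMP binds, had 0.85 in the authors' deposited table, the highest value of the 16 kinase genes. PIM1, a serine/threonine kinase without a regulatory domain that is controlled largely by its amount, had 0.58 in the authors' deposited table. LIMK1, which phosphorylates and inactivates the actin-severing protein cofilin, had 0.55 there, the smallest value of any member listed higher in the authors' deposited table.

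The kinases listed lower held the lowest values of the set. PAK2, a kinase activated by the GTPases RAC and CDC42 that acts on the actin cytoskeleton, had -0.88 in the authors' deposited table, at rank 48 of 294 genes listed lower. ICK (now CILK1), a kinase of the primary cilium, had -0.83 in the authors' deposited table. Both members that phosphorylate diacylglycerol to phosphatidic acid were listed lower in the authors' deposited table, DGKH at -0.81 and DGKD at -0.74. DGKH and DGKD are close relatives of the same class, and with SACM1L they made 3 lipid enzymes, all listed lower in the authors' deposited table.

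The other kinases listed lower lay near the smallest entries. MAPKAPK3, a kinase activated by p38 MAP kinases, had -0.59 in the authors' deposited table. CDK17, a cyclin-dependent kinase of little known function, had -0.57 and CRKL, an adaptor with SH2 and SH3 domains that carries signals from focal adhesions and receptors, had -0.56 in the authors' deposited table. PRKAA2, a catalytic subunit of the energy sensor AMPK, had -0.54, the smallest size among the members in the authors' deposited table. PAK2 and LIMK1, which lie on the same route to cofilin since PAK kinases can activate LIMK1, were on opposite sides of the authors' deposited table (-0.88 and 0.55).

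Set side by side, the phosphatases of the set reached farther up and its kinases slightly farther down. Both ends rest on the genes left out by name. Of those, the kinase CDK1 (1.20) lay above CDKN3 (1.18) and the phosphatase DUSP1 (-0.93) below PAK2 (-0.88). Among genes listed higher in the authors' deposited table the median was 0.82 for 4 phosphatases and 0.63 for 8 kinases, against 0.65 for all 377 genes. Among genes listed lower the medians were -0.75 for 3 phosphatases and -0.66 for 8 kinases, against -0.66 for all 294 genes in the authors' deposited table. With 3 and 4 phosphatases on a side, a single gene moves these medians, and no difference between the types was tested. The 9 left-out genes listed higher spanned 0.74 to 1.22 in the authors' deposited table (CKS2 the highest), so CDKN3 and CDC25C lay within their range and the kinases of the set below its lower end, except PRKAR2A.

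**Figure D2:**
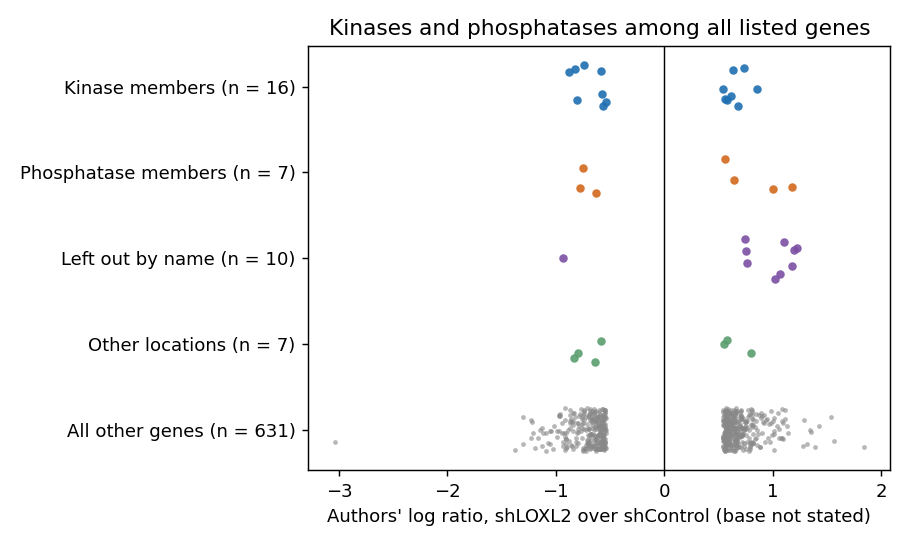
Listed log ratio (x axis) of the 16 kinase and 7 phosphatase genes, of the 10 genes left out by name, of 7 genes typed kinase at other locations and of the other listed genes (1 point a gene, with vertical scatter for legibility). No point lies within 0.537 of 0, and 9 of the 10 left-out genes lie on the right.

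The set was also divided by the location given in the authors' deposited table. Of the 7 nuclear genes, 6 were listed higher (85.7%), where 80.7% of all nuclear genes in the authors' deposited table were. This share is near the background, and all 6 were division genes. Of the 16 cytoplasmic genes, 6 were listed higher (37.5%) in the authors' deposited table and 10 lower. Of all its cytoplasmic genes, 55.9% were listed higher, a share that keeps the kinases left out by name and other division genes. The left-out cytoplasmic kinases were all listed higher, so the sets compared are unlike. Without the division genes CKS1B and CIT, 4 of 14 cytoplasmic genes (28.6%) were listed higher in the authors' deposited table. Division genes were not taken out of the background. A further 7 genes typed kinase at other locations were given as 3 higher and 4 lower in the authors' deposited table, from PIM2 at 0.80, a relative of PIM1 with no location given, to the membrane scaffold MAGI1 at -0.83.

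**Figure D3:**
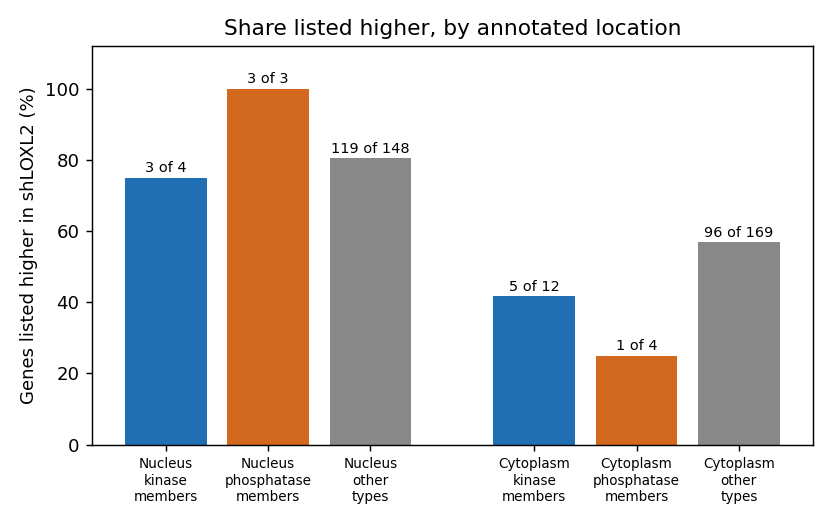
Share of genes listed higher in shLOXL2 cells (y axis, percent, from 0) for kinase members, phosphatase members and genes of other types in the nucleus and in the cytoplasm, with counts above the bars. Nuclear genes of other types were listed higher in 119 of 148 cases and cytoplasmic ones in 96 of 169. The cytoplasmic kinases (5 of 12) and phosphatases (1 of 4) lay below the latter. Genes left out by name are in no bar, and the bars of other types keep division genes.

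The wider families were looked up in 22 lists of kinases, phosphatases and partners with 690 genes. The authors' deposited table held 26 of these genes, with 14 higher and 12 lower, and 18 of the 26 were members. This is 3.77% of the lists, where the authors' deposited table held 2.96% of the 20043 protein-coding genes in RefSeq, so a short list would often have no gene there. No gene of the core MAP kinase cascade was among the entries analysed (0 of 22 MAP kinase kinase kinases, 0 of 7 MAP kinase kinases and 0 of 14 MAP kinases), and MAPKAPK3 was the only one of 11 kinases they activate. Likewise 0 of 16 genes of the AKT, mTOR, SGK and S6 kinase list, 0 of 10 stress kinases, 0 of 29 splicing, casein and DYRK kinases and 0 of 10 NEK kinases other than NEK2 were found there. The authors' deposited table held 3 of 40 dual-specificity phosphatases, CDKN3 and CDC25C higher and DUSP1 lower. Both listed genes of the 18 non-receptor tyrosine phosphatases were members, PTPN12 and PTPN22.

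Some partners or relatives of members fall outside the set, and they lay on either side. PPP2R5C, a regulatory subunit of protein phosphatase 2A, had 0.55 in the authors' deposited table, beside 0.56 for the catalytic subunit PPP2CA, and no other of 53 phosphatase regulatory subunits was listed. INPP5F, a phosphoinositide phosphatase with a domain like that of SACM1L, had -0.80 in the authors' deposited table, beside -0.63 for SACM1L. PIM2 and PIM1 were both listed higher in the authors' deposited table, at 0.80 and 0.58. CDKN1B, the inhibitor p27 of cyclin-dependent kinases, had 0.57 in the authors' deposited table. DUSP1 lay opposite to CDKN3 and CDC25C, the other listed dual-specificity phosphatases. Of the list genes not otherwise described, the SRC family kinase FYN had -0.58 in the authors' deposited table. The interleukin-1 receptor-associated kinase IRAK2 had 0.55 and SAMHD1, which degrades deoxynucleotides, had 0.60 there. Of markers of other cell types, 0 of 5 for blood and 0 of 3 for fibroblasts were in the authors' deposited table, and of 4 endothelial ones KDR was, at -0.80. EPCAM, of 4 epithelial markers, had 0.63 there and none of 3 mesenchymal markers was in the authors' deposited table.

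The listed values have no replicate error of their own, and no value per array could be given for these genes, because the 32321 probe sets of the arrays are numbered and not named. The direction was read from LOXL2, which had the lowest entry of the authors' deposited table, -3.04, and on the arrays the largest fall of any probe set was -3.08 on the log2 scale (8.08 in shLOXL2 against 11.16 in shControl, SE 0.167, limma adjusted p = 0.0126). That call ended when any 1 of the 6 arrays was left out (lowest adjusted p of any probe set 0.0676 to 0.149 by limma) and when the 2 controls with conflicting labels were left out (0.257). The base of the logarithm is not stated. If it is 2, the values of the 23 genes in the authors' deposited table run from 2.26-fold higher for CDKN3 to 1.83-fold lower for PAK2.

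How often differences of such sizes occurred on the arrays can be counted without names. A mean difference of 0.541 or more, the size of PRKAA2, was found in 1290 probe sets (3.99%), 593 higher and 697 lower. At the size of CDKN3, 23 probe sets were as high, and at that of CDC25C 59. As many as 147 probe sets were as low as PAK2 and 580 as high as LIMK1. Between 0.541 and 1.175, the range of the members, lay 1221 probe sets, of which 540 (44.2%) had groups that did not overlap and 638 (52.3%) had an unadjusted limma p under 0.05. They were picked here for the size of their difference, and over all 32321 probe sets the shares were 10.7% (3469) and 5.51% (1781). None of the 1221 passed at an adjusted p of 0.05 by limma (lowest 0.363), and 1 of all 32321 did (0.00309%). The median SE of these differences was 0.285, against 0.158 over all probe sets. With the replicate number as a block, 986 of the 1221 (80.8%) had an unadjusted limma p under 0.05. Over all 32321 probe sets 2964 did with that block. For the 1221 the median SE was then 0.191, and 0 of them passed at an adjusted p of 0.05. Which of these probe sets, if any, measure the members is not known here.

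**Figure D4:**
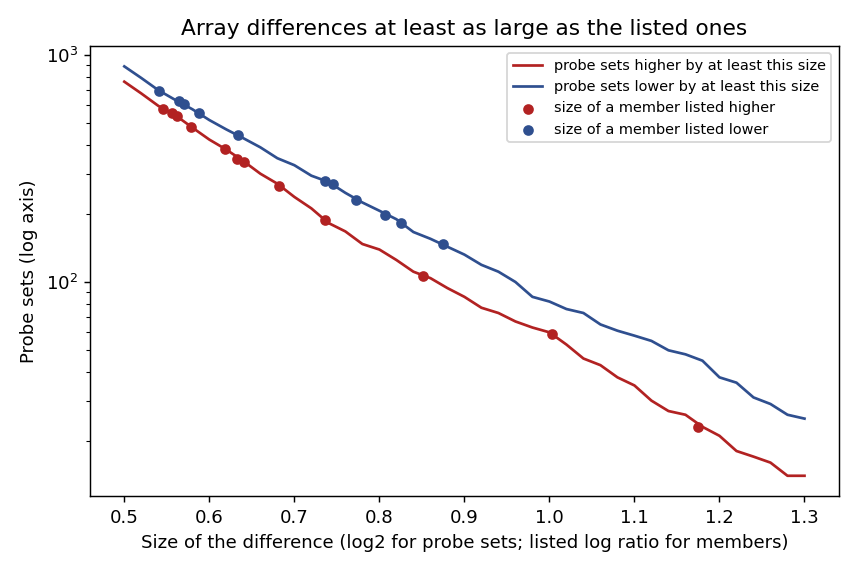
Number of probe sets (y axis, log scale) whose mean difference between shLOXL2 and shControl arrays was at least the size on the x axis, for higher (red) and lower (blue) probe sets, with the listed size of each of the 23 genes placed on the curves. The counts run from 23 at the size of CDKN3 to 697 at that of PRKAA2.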

How the data were processed

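Total RNA of 6 samples, labelled by hairpin, was measured on Affymetrix arrays, per the labels' protocols. The log2 values of 32321 probe sets were deposited after RMA, per the submitters' processing notes. Neither the RMA version nor a build or probe annotation is given in the sources used here. The authors' deposited log ratio table is an export from software of Ingenuity Systems, per the file headers, and its header names no log base, direction or selection rule. After commas were read as points and the question mark of 312 entries as minus, the 724 entries stood in falling order with 0 breaks. Entries of a gene were averaged, and 1 gene with both signs was left out of counts.

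The test of the arrays was limma 3.58.1 in R 4.3.3, with a term for group alone, Benjamini-Hochberg adjustment over all probe sets and a check on simulated data. That test did not use replicate numbers as pairs, although deviations of same-numbered arrays correlated (0.354, 0.452 and 0.160). They were used as pairs only in the replicate block, an alternative. Medians of the arrays lay between 5.74 and 5.82. Precision is limited by the number of arrays, and p-values reflect only their spread, possibly a technical one.

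All 23 symbols matched RefSeq (ICK as CILK1). Members, roles, motifs and gene lists were chosen with earlier results of these data known. Every member is named, with the left-out genes by range, some of them by name, and the list genes found in the table. Planned protein motifs were not analysed here. The text gives promoter letters in their place, an analysis chosen after the data were seen.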

Additional observations from a re-analysis of the deposited data

How the results depend on the processing

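The count of 12 genes listed higher (11 lower) depends on which genes enter. It was 20 (12 lower) with the left-out genes put back, 6 (10) in the cytoplasm, 6 (1) in the nucleus and 6 (6) among entries at or above the median size of 0.652. For kinases the 8 higher (8 lower) became 16 (8), 5 (7), 3 (1) and 4 (4) in the same order. For phosphatases the 4 higher (3 lower) became 1 (3) in the cytoplasm, 3 (0) in the nucleus and 2 (2) at or above the median size. Under alternatives chosen after seeing the data, leaving out the division genes gave 4 (11) in all, 3 (8) kinases and 1 (3) phosphatases, and leaving out proteins that are not themselves enzymes gave 5 (7) kinases. These changes follow from the genes that enter. Under the other alternatives, any location and entries in place of genes among them, the counts listed higher stayed within 1.5 times.

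On the arrays the 1 call stayed 1 under quantile normalization, median centring, the dim filter, trend and robust moderation and the replicate block (1 call, lowest adjusted p = 0.0238 by limma; 2964 unadjusted under 0.05, against 1781 without the block), which changed no other call. With shControl replicates 2 and 3 left out there were 0 calls (lowest adjusted p = 0.257 by limma, the lone control assumed to vary like the others; 3975 unadjusted under 0.05). With any single array left out there were 0 to 0 calls by limma (1063 to 2250 unadjusted under 0.05). Signal over background was not analysed here.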

Other observations

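Some entries carry kinase or phosphatase in the file's gene name and another type, and so fall outside the set. The authors' deposited table held 8 such genes, 5 of them higher and 3 lower, named here after their values were seen. Beside CDKN1B, PPP2R5C and INPP5F they were CDK2AP1, a binding partner of CDK2, at 0.71, DOLK (dolichol kinase), which makes the lipid carrier of N-glycosylation, at 0.68, DCTPP1, which hydrolyses dCTP, at 0.64, PHACTR2, which binds actin and protein phosphatase 1, at -0.64 and GCKR, the inhibitor of glucokinase, at -0.91 in the authors' deposited table. GCKR lies below PAK2 in the authors' deposited table.

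Of the 23 genes, 1 had a listed gene as its next protein-coding neighbour by RefSeq order, where 46 of 594 protein-coding genes of the authors' deposited table (7.74%) had one. The pair was CDK17 at -0.57 and ELK3, an ETS transcription factor, at -0.71 in the authors' deposited table, and was named after its values were seen.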
